A study of Homo sapiens with 30 samples.

Results

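The genes of cholesterol and fatty acid synthesis were followed through 30 RNA-seq libraries of H9, an established human embryonic stem (hES) cell line. The set was chosen by gene symbol and holds 30 of the 28307 genes counted in every library: 17 enzymes of cholesterol synthesis, 5 genes of sterol sensing and transport and 8 genes of fatty acid synthesis. All 30 were found and all 30 passed the filter on low counts in each of the 4 model fits. The libraries form 10 groups of 3. PXGL WT are unmodified naive cells in PXGL medium, which resemble the preimplantation epiblast, and XIST KO are naive PXGL cells of 1 clone with a deletion over the promoter and first exon of XIST, the long noncoding RNA that coats the X chromosome, so that its 3 libraries are technical replicates. CRISPRi UT and CRISPRi Dox are 3 naive PXGL clones carrying a doxycycline-inducible dCas9-KRAB repressor and a guide to the XIST promoter, untreated or given 1 µg/ml doxycycline for 10 days. No cells without the repressor were given doxycycline, so the drug and the repression cannot be told apart. Naive PXGL cells received a scrambled siRNA (siScr), an siRNA mix of 1 siRNA against SPEN (siSPEN1), a partner protein of XIST in gene silencing, or a mix of 2 such siRNAs (siSPEN2), and were collected at 48 h. NaiveCult WT are unmodified naive cells made by another protocol, XACT KO are 3 clones of such cells with a deletion over the start sites of XACT, a second X-coating noncoding RNA, and Primed WT are unmodified cells in the conventional primed state, on Matrigel rather than on mouse feeder cells.

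Cholesterol is built from acetyl-CoA. HMGCS1 makes HMG-CoA, the kinases MVK and PMVK with MVD turn mevalonate into isoprenoid units, IDI1 interconverts these units and FDPS joins them, FDFT1 and SQLE lead on to sterols, LSS closes the ring of lanosterol, and CYP51A1, TM7SF2, MSMO1, HSD17B7, SC5D and DHCR7 carry lanosterol to cholesterol. Fatty acids also start from acetyl-CoA, which ACLY makes from citrate and ACSS2 from acetate. ACACA and FASN build palmitate, ELOVL6 lengthens it, SCD adds a double bond, and FADS1 and FADS2 desaturate polyunsaturated fatty acids. Many of these genes are known targets of the sterol regulatory element-binding proteins encoded by SREBF1 and SREBF2, which are held in the endoplasmic reticulum by INSIG1 and INSIG2 when sterols are plentiful. STARD4 carries cholesterol between membranes.

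The promoters of the 4 regulators and of HMGCS1, which is followed in every comparison, are shown from RefSeq (GRCh38.p14, 250 bases before to 50 bases after the start of transcription, written 5′ to 3′ on the gene's strand). Capitals mark the core of the sterol regulatory element, searched as TCACNCCAC, and the CCAAT box, read as CCAAT or ATTGG since both strands were searched. The windows lie at chr17:17836937-17837236 (minus strand, SREBF1), chr22:41832855-41833154 (plus, SREBF2), chr7:155297628-155297927 (plus, INSIG1), chr2:118088221-118088520 (plus, INSIG2) and chr5:43313363-43313662 (minus, HMGCS1).
SREBF1: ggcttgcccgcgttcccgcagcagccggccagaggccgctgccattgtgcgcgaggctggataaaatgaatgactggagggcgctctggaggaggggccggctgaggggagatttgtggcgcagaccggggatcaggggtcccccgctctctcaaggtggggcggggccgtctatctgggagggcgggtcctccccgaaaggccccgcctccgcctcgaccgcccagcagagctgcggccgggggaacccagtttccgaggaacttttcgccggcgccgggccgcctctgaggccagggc
SREBF2: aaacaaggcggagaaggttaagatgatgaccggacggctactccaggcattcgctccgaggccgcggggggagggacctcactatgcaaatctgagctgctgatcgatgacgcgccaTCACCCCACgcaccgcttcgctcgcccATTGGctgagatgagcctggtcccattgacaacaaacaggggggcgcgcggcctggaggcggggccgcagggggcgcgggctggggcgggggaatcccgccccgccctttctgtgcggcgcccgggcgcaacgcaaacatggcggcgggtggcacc
INSIG1: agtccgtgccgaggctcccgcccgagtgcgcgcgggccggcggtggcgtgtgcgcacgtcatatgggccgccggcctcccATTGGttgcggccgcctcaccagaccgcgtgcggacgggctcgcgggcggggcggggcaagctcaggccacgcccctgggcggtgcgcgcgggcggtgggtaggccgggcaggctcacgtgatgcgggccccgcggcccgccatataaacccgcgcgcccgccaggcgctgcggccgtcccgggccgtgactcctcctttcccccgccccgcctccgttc
INSIG2: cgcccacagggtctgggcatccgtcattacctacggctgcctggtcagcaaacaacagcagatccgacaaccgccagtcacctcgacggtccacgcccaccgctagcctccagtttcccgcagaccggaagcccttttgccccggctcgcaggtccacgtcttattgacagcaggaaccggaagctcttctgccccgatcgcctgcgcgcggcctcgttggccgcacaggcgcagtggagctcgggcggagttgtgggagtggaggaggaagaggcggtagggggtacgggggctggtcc
HMGCS1: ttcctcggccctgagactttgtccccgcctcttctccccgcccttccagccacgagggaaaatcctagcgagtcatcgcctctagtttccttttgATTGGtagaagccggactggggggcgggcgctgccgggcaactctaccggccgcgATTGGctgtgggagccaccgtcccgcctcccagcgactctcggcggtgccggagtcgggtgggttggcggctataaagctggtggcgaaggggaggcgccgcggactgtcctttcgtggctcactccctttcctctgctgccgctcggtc
SREBF2 holds the sterol element core at position -133 from its start and a CCAAT box at -106. INSIG1 holds a CCAAT box at -170, HMGCS1 holds 2 at -155 and -100, and SREBF1 and INSIG2 hold neither. A window was found for 26 of the 30 genes, and 1 window per gene was searched. The sterol element core is in 1 of these 26 (3.85%) and in 1.13% of all 35116 windows, the CCAAT box in 16 (61.5%) and in 34.6% of all windows, and the GC box GGGCGG in 25 (96.2%) and in 45% of all windows. The shares of all windows count windows rather than genes. They are therefore not a like-for-like background for the 26 genes. Some of the windows searched, such as those of IDI1 and ACSS2, lie away from the start of the gene in GENCODE. All motifs were searched on both strands, and a match or its absence describes only the window searched. Only exact matches were counted, so the absence of a match does not show that a promoter lacks a variant of the element.

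Library totals ran from 31190052 to 65637976 counts. In CPM, the counts scaled to the library total, XIST was at 898 to 901 in PXGL WT and at most 0.448 in XIST KO, and at 642 to 698 CPM in CRISPRi UT against 6.52, 159 and 170 CPM in the libraries of CRISPRi Dox. SPEN averaged 330 ± 46.3 CPM in siScr and was at 152 to 177 CPM in siSPEN1 and 152 to 167 CPM in siSPEN2, and XACT at 1.14 to 2.17 CPM in NaiveCult WT and at most 0.124 CPM in XACT KO. The 7 naive markers summed to between 2161 and 3114 CPM in all naive libraries and to at most 30.3 CPM in Primed WT, where the 5 primed markers summed to 3982 to 4248 CPM. The identifiers of the files fall in 3 runs that hold the XIST groups with PXGL WT, the siRNA groups, and the NaiveCult, XACT and primed groups, so that values of different runs share the run as well as the condition. Where nothing in the labels says that libraries of a group came from separate cultures or clones, the p-values measure only the spread between these libraries.

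Most of the 30 genes were highest in primed cells. By mean CPM, 21 of the 30 had their highest group in Primed WT. It was siScr for 4, NaiveCult WT for 2, and CRISPRi UT, siSPEN1 and XACT KO for 1 each. With TMM scaling, which corrects for differences in RNA composition, the number highest in Primed WT was 18. The same count was not made over all genes, so it does not show that the 30 differ from other genes. The 17 cholesterol enzymes summed to 3799 ± 254 CPM (SD, n = 3) in Primed WT, 2596 ± 53.0 CPM in NaiveCult WT, 2026 ± 2.76 CPM in PXGL WT and 1902 ± 71.8 CPM in CRISPRi Dox, the lowest group mean. The 8 fatty acid genes summed to 5324 ± 73.7 CPM in Primed WT, 3372 ± 46.3 CPM in PXGL WT and 3087 ± 129 CPM in NaiveCult WT. The 5 sensing and transport genes summed to 999 ± 52.8 CPM in Primed WT, 966 ± 6.73 CPM in PXGL WT and 649 ± 15.6 CPM in NaiveCult WT. These sums are on library totals. The median ratio of TMM-scaled to library-total levels over the 30 genes was 0.851 in Primed WT, 1.01 in PXGL WT and 0.970 in NaiveCult WT. With TMM scaling, the sensing and transport genes were therefore not higher in sum in Primed WT than in PXGL WT.

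**Figure D1:**
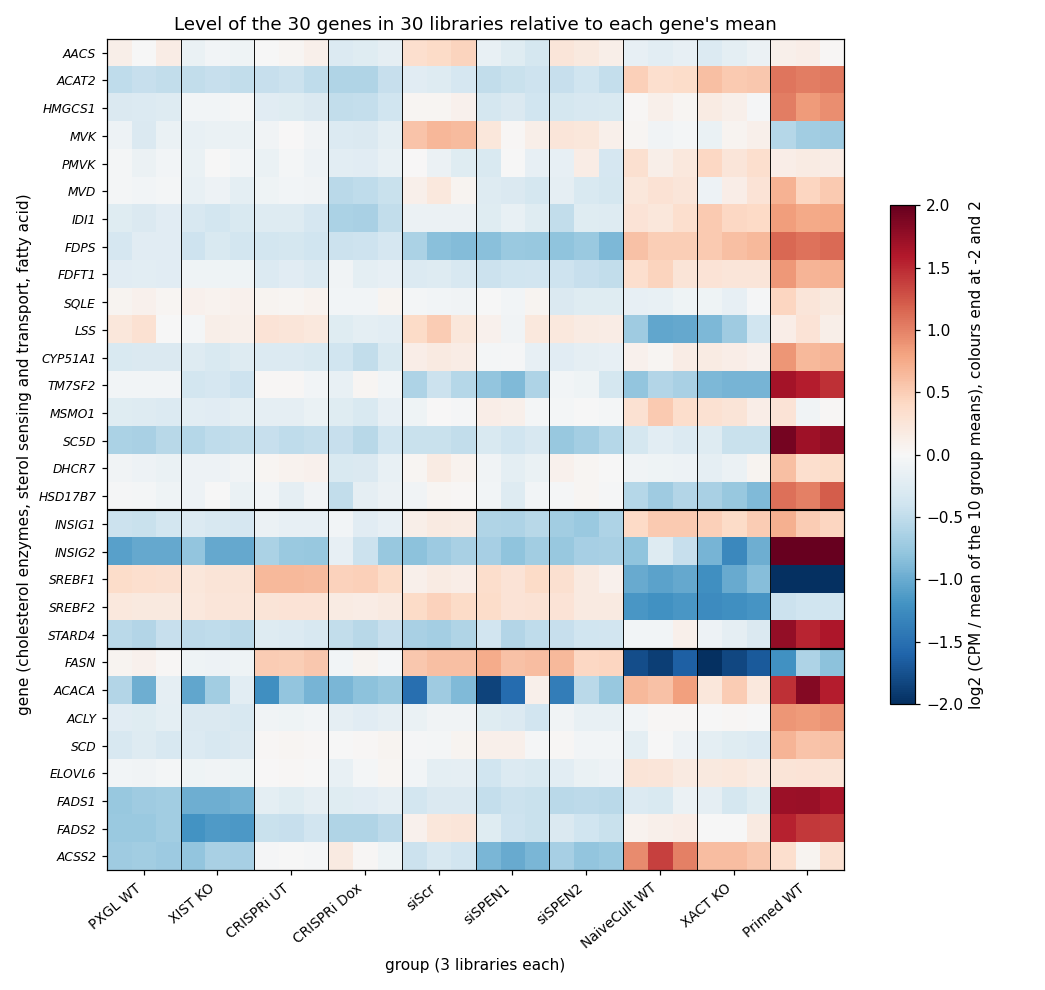
Heat map of the 30 genes (rows, in 3 blocks by role) in 30 libraries (columns, 3 per group), coloured by the log2 ratio of CPM to the gene's mean over the 10 group means. The Primed WT columns are red for most rows, while SREBF1 is blue there and SREBF2 and FASN are blue in NaiveCult WT, XACT KO and Primed WT.

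Between genes, levels were compared per kilobase of exon. In PXGL WT, SCD was the highest, followed by FASN at 124 and MSMO1 at 101 CPM per kb. In Primed WT, SCD stood at 532 and MSMO1 at 127 CPM per kb, and FASN at 65.7 CPM per kb. ACACA, the acetyl-CoA carboxylase that precedes FASN, was far below its branch, with 0.064 CPM per kb in PXGL WT and 0.29 CPM per kb in Primed WT, from 12 to 237 counts per library. No other gene shares its exons on the same strand in GENCODE 44, and the cause of its low level was not tested. CYP51A1 shares 68.2% of its exon bases with unnamed genes on the same strand in GENCODE 44. The authors counted reads on another annotation, where exon overlaps were not examined, so the level of CYP51A1 is uncertain. HSD17B7 has a near-identical pseudogene, HSD17B7P2, which was at 1.87 CPM in PXGL WT where HSD17B7 was at 14.5 CPM, and reads may have been split between them.

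The state of the cells was compared first, to ask how the pathway differs between naive and primed pluripotency. NaiveCult WT and Primed WT come from the same run of identifiers. Primed cells were grown in mTeSR1 medium on Matrigel, and naive cells in their own media on feeder cells. State, medium and growth surface therefore cannot be told apart. Levels are CPM of the library total, whereas log2 fold changes were fitted with TMM factors, so that the 2 scales can differ. In NaiveCult WT, 23 of the 30 genes were lower and 6 higher than in Primed WT at a Benjamini-Hochberg adjusted p below 0.05 (edgeR), beside 43.0% of all 18663 genes tested that were lower and 42.5% that were higher. With a log2 fold change beyond 1 in addition, 7 were lower and 2 higher, beside 28.4% and 21.1% of all genes. The median log2 fold change of the 30 was -0.50, against -0.01 over all genes. By role, 14 of the 17 cholesterol enzymes fell and 3 rose, 3 of the 5 sensing and transport genes fell and 1 rose, and 6 of the 8 fatty acid genes fell and 2 rose, ACSS2 and ELOVL6. ELOVL6, named after its values were seen, rose by little with TMM factors (log2 fold change 0.11, SE 0.040, adjusted p = 0.016), and on library totals its call was lost and its sign turned (-0.04, adjusted p = 0.32). PXGL WT differs from Primed WT in run as well as in state, medium and growth surface. It gave 21 genes lower and 5 higher, beside 44.4% and 43.1% of all genes. Beyond a log2 fold change of 1, 9 were lower and 2 higher, beside 29.1% and 25.8%. Its median over the 30 was -0.76, against -0.03 over all genes. Both comparisons use the same primed libraries, so they are given side by side and not counted as separate evidence.

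Among the sensing genes, SREBF1 was higher and INSIG2 lower in both kinds of naive cell than in Primed WT. SREBF1 was at 31.6, 41.8 and 38.4 CPM in the primed libraries, at 135, 129 and 133 CPM in NaiveCult WT and at 349, 341 and 339 CPM in PXGL WT. The 3 states did not overlap, with primed cells the lowest and PXGL cells the highest. Its log2 fold change against Primed WT was 1.98 (SE 0.074, adjusted p = 7.8e-12) in NaiveCult WT and 3.41 (SE 0.077, adjusted p = 3.6e-14) in PXGL WT, or 3.94-fold and 10.6-fold. SREBF2 was ordered otherwise, at 266 to 272 CPM in Primed WT, 155 to 160 CPM in NaiveCult WT and 409 to 413 CPM in PXGL WT. It fell in NaiveCult WT (log2 fold change -0.61, SE 0.038, adjusted p = 1.8e-09) and rose in PXGL WT (0.82, SE 0.038, adjusted p = 6.0e-11), both against Primed WT.

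INSIG2 was at 123, 108 and 105 CPM in the primed libraries, at 13.9, 20.4 and 17.6 CPM in NaiveCult WT and at 11.4, 11.9 and 11.9 CPM in PXGL WT. Every primed library lay above every naive library, with log2 fold changes of -2.53 (SE 0.11, adjusted p = 4.3e-11) in NaiveCult WT and -3.05 (SE 0.11, adjusted p = 6.0e-12) in PXGL WT. INSIG1, its paralog and a known target of the SREBP proteins, was at 224 to 273 CPM in Primed WT, 220 to 239 CPM in NaiveCult WT and 122 to 129 CPM in PXGL WT. NaiveCult WT overlapped Primed WT for INSIG1 (log2 fold change 0.08, SE 0.067, adjusted p = 0.27, and -0.07 when scaled to library totals), whereas PXGL WT was lower (-0.76, SE 0.068, adjusted p = 1.0e-07). STARD4 was at 311 to 367 CPM in Primed WT, 104 to 117 CPM in NaiveCult WT and 72.1 to 78.8 CPM in PXGL WT, with log2 fold changes of -1.48 (SE 0.065) and -1.96 (SE 0.066).

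Among the cholesterol enzymes, SC5D and TM7SF2, of the late steps, differed most in both comparisons. SC5D, the lathosterol desaturase, was at 367, 315 and 331 CPM in the primed libraries and at 75.8, 84.0 and 80.8 CPM in NaiveCult WT. PXGL WT held 62.4, 62.2 and 66.0 CPM, so that both kinds of naive cell were below all primed libraries (log2 fold changes -1.92, SE 0.064, adjusted p = 2.3e-12 and -2.20, SE 0.064, adjusted p = 4.7e-13). TM7SF2, a sterol reductase, was at 36.9 to 42.8 CPM in Primed WT, 7.75 to 8.99 CPM in NaiveCult WT and 12.9 to 13.0 CPM in PXGL WT. Its log2 fold changes were -2.09 (SE 0.084) and -1.41 (SE 0.080), and those of HSD17B7 were -1.57 (SE 0.078) and -0.95 (SE 0.075). LSS, the lanosterol synthase, was at 7.55 to 9.41 CPM in NaiveCult WT, below Primed WT at 16.7 to 18.8 CPM (log2 fold change -0.94, SE 0.11, adjusted p = 2.6e-06), while PXGL WT at 15.4 to 19.2 CPM overlapped Primed WT (0.21, SE 0.11, adjusted p = 0.076).

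Of the early enzymes, HMGCS1 was at 759, 672 and 712 CPM in the primed libraries, 377, 401 and 382 CPM in NaiveCult WT and 306, 310 and 312 CPM in PXGL WT. The groups did not overlap and its log2 fold change was -0.73 (SE 0.053, adjusted p = 1.1e-08) in NaiveCult WT, and it fell by 1.00 on the log2 scale (SE 0.053, adjusted p = 3.0e-10) in PXGL WT. ACAT2, which makes acetoacetyl-CoA, and FDPS, the farnesyl diphosphate synthase, fell by 1.33 (SE 0.048) and 1.18 (SE 0.051) on the log2 scale in PXGL WT and by 0.50 (SE 0.047) and 0.44 (SE 0.050) in NaiveCult WT. MVK, the mevalonate kinase, differed from these 3, at 19.2 to 21.0 CPM in Primed WT, 29.9 to 32.3 CPM in NaiveCult WT and 25.7 to 29.1 CPM in PXGL WT. It was higher in both kinds of naive cell, by 0.79 (SE 0.068, adjusted p = 8.2e-08) and 0.69 (SE 0.068, adjusted p = 3.0e-07) on the log2 scale. MSMO1, a sterol methyl oxidase, and PMVK, the phosphomevalonate kinase, were higher in NaiveCult WT than in Primed WT (0.46, SE 0.082 and 0.22, SE 0.067), the latter with overlapping CPM and not when scaled to library totals (0.07, adjusted p = 0.39). In PXGL WT, MSMO1, PMVK and SQLE did not pass with TMM factors (-0.14, -0.01 and -0.03) and were lower when scaled to library totals (-0.34, -0.22 and -0.24). AACS, which activates acetoacetate, had a mean of 72.3 CPM in both PXGL WT and Primed WT. Its log2 fold change between them was 0.21 (adjusted p = 0.0012) with TMM factors and 0.002 (adjusted p = 0.97) when scaled to library totals.

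In the fatty acid branch, FADS1 and FADS2 were lower in both kinds of naive cell than in Primed WT, whereas FASN fell in NaiveCult WT and rose in PXGL WT. FADS1 was at 412, 413 and 392 CPM in the primed libraries, 104, 101 and 115 CPM in NaiveCult WT and 73.9, 76.3 and 77.0 CPM in PXGL WT. FADS2, its neighbour on chromosome 11, was at 609 to 676 CPM in Primed WT, 243 to 254 CPM in NaiveCult WT and 139 to 143 CPM in PXGL WT. Both were lower in every naive library, with log2 fold changes in NaiveCult WT of -1.78 (SE 0.052, adjusted p = 5.6e-13) for FADS1 and -1.20 (SE 0.048, adjusted p = 1.8e-11) for FADS2, and in PXGL WT of -2.21 (SE 0.052) and -1.97 (SE 0.049). FASN was at 483, 726 and 627 CPM in the primed libraries, 326, 301 and 359 CPM in NaiveCult WT and 1161, 1176 and 1135 CPM in PXGL WT. The 2 kinds of naive cell lay on opposite sides of the primed cells, at log2 fold changes of -0.74 (SE 0.10, adjusted p = 1.4e-05) and 1.13 (SE 0.11, adjusted p = 1.6e-07).

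SCD, the stearoyl-CoA desaturase, was at 2708 to 2935 CPM in Primed WT, 1593 to 1817 CPM in NaiveCult WT and 1460 to 1525 CPM in PXGL WT, lower in both (log2 fold changes -0.56, SE 0.058 and -0.70, SE 0.058). ACSS2, which makes acetyl-CoA from acetate, was at 61.1 to 74.9 CPM in Primed WT, 114 to 152 CPM in NaiveCult WT and 35.6 to 36.6 CPM in PXGL WT. Its order of states was the reverse of that of FASN, with log2 fold changes of 1.03 (SE 0.10, adjusted p = 3.6e-07) and -0.74 (SE 0.10, adjusted p = 1.2e-05). ACACA fell by 0.79 (SE 0.19) and 1.95 (SE 0.20) on the log2 scale at its low level.

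**Figure D2:**
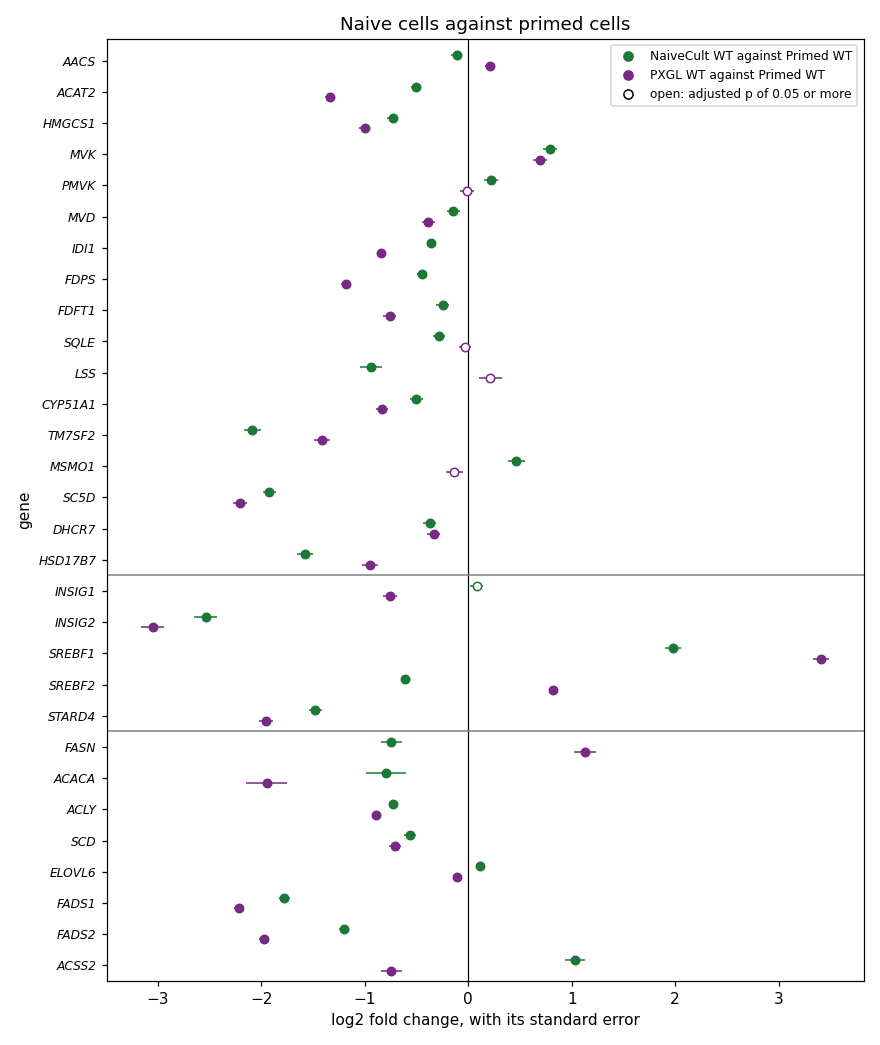
Log2 fold change with its standard error (x axis) for the 30 genes (y axis, in 3 blocks by role) in NaiveCult WT (green) and PXGL WT (purple) against Primed WT, filled where the adjusted p is below 0.05. Most points lie left of 0, SREBF1 lies far to the right at 1.98 and 3.41, and FASN, SREBF2 and ACSS2 have their points on opposite sides of 0.

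PXGL WT and NaiveCult WT were also compared directly, with medium and run varying together so that they cannot be told apart. Of the 30 genes, 20 were lower and 8 higher in PXGL WT, beside 34.9% and 35.7% of all genes, with 2 lower and 4 higher beyond a log2 fold change of 1, beside 11% and 16.3%. The median over the 30 was -0.26, against 0.002 over all genes. FASN (log2 fold change 1.87, SE 0.11, adjusted p = 2.4e-09), SREBF1 (1.43, SE 0.071), SREBF2 (1.43, SE 0.038) and LSS (1.15, SE 0.11) were higher in PXGL WT. ACSS2 (-1.78, SE 0.11, adjusted p = 3.5e-09) and ACACA (-1.15, SE 0.21) were lower. INSIG1 (-0.84, SE 0.068), ACAT2 (-0.83, SE 0.048), FADS2 (-0.77, SE 0.048), FDPS (-0.74, SE 0.051), INSIG2 (-0.51, SE 0.12) and HMGCS1 (-0.27, SE 0.053, adjusted p = 0.00043) were lower and TM7SF2 (0.67, SE 0.085) higher. SCD was 0.15 lower on the log2 scale in PXGL WT (SE 0.058, adjusted p = 0.037).

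The wider pathway was split between the directions, near the shares over all genes. Of 50 other genes of sterol and lipid metabolism, 24 were lower and 22 higher in NaiveCult WT than in Primed WT, beside 43.0% and 42.5% of all genes. In PXGL WT 24 were lower and 23 higher, beside 44.4% and 43.1%. In sterol uptake and traffic, VLDLR, a lipoprotein receptor, fell from 130 CPM in Primed WT to 8.03 CPM in NaiveCult WT and 7.98 CPM in PXGL WT. SOAT1, which esterifies cholesterol for storage, rose from 6.82 CPM to 185 and 151 CPM (log2 fold changes 4.91, SE 0.059 and 4.67, SE 0.059). Among genes of the LXR pathway, the oxysterol-sensing counterpart of SREBP, ABCA1, which exports cholesterol, rose from 27.4 CPM to 429 and 264 CPM, while ABCG1 fell from 9.69 CPM to 1.37 and 0.656 CPM. In fatty acid oxidation, CPT1A, which admits fatty acids to mitochondria, rose from 7.78 CPM to 96.4 and 111 CPM. Each of these passed at an adjusted p below 0.05.

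Markers of other cell types moved with the state. The 5 trophectoderm markers summed to 93.0 to 108 CPM in NaiveCult WT, 26.6 to 28.9 CPM in PXGL WT and 10.3 to 10.7 CPM in Primed WT, where CDX2 was at 0 in 2 libraries. The 5 hypoblast markers summed to 39.9 to 41.4, 25.6 to 27.8 and 1.99 to 2.45 CPM. The 6 fibroblast markers summed to 21.9 to 33.4 CPM in NaiveCult WT, 14.7 to 19.9 CPM in PXGL WT and 63.1 to 67.8 CPM in Primed WT, with LUM at 0 in all PXGL WT libraries. Single markers did not all follow these sums. Against Primed WT, 2 fibroblast markers passed as higher and 2 as lower in NaiveCult WT, and 1 and 5 in PXGL WT. All 5 trophectoderm markers passed as higher in NaiveCult WT, whereas 4 were higher and 1 lower in PXGL WT. Their part in the differences was not tested, and in bulk libraries fewer cells of a type and less RNA per cell cannot be told apart. Scaling to library totals in place of TMM factors moved the median of all genes to -0.17 in NaiveCult WT and -0.24 in PXGL WT against Primed WT, and left 4 genes of the set higher and 23 lower in the first and 4 higher and 24 lower in the second.

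Loss of XIST by deletion was examined in XIST KO against PXGL WT. All 30 genes are autosomal and most of them did not pass. Of the 30 genes, 2 rose and 5 fell, beside 6.94% of all 17286 genes that rose and 5.99% that fell. The median over the 30 was 0.002, against -0.01 over all genes. The 3 fatty acid genes that changed all fell, and of the cholesterol enzymes 2 rose and 2 fell. Fitted on the 6 compared libraries alone, 4 rose and 9 fell, beside 2248 and 2128 of all 16877 genes in that fit. Since the replicates of XIST KO are technical, its p-values do not cover differences between clones. The XIST groups were fitted together and share an estimate of the spread of each gene. The technical replicates therefore also enter the p-values of CRISPRi Dox and of the difference between the effects, given below. HMGCS1, for example, had an SD of 1.93 CPM in XIST KO and 10.2 CPM in CRISPRi Dox.

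FADS2 was at 139, 139 and 143 CPM in PXGL WT and at 101, 106 and 104 CPM in XIST KO. Every knockout library lay below every control library (log2 fold change -0.44, SE 0.036, adjusted p = 2.1e-08), or 1.35-fold lower. FADS1 fell from 73.9 to 77.0 CPM to 63.8 to 65.1 CPM (-0.24, SE 0.038, adjusted p = 0.00014) and FASN from 1135 to 1176 CPM to 1032 to 1051 CPM (-0.15, SE 0.036, adjusted p = 0.0057). HMGCS1 moved the other way, from 306 to 312 CPM to 360 to 363 CPM (0.22, SE 0.035, adjusted p = 0.00017). FDFT1, the squalene synthase, rose with it (0.14, SE 0.036, adjusted p = 0.015), while TM7SF2 (-0.32, SE 0.067, adjusted p = 0.0022) and AACS (-0.18, SE 0.044, adjusted p = 0.0075) fell. INSIG1 (0.10, SE 0.040, adjusted p = 0.13), SREBF1 (-0.09, SE 0.032, adjusted p = 0.061), SREBF2 (0.03, SE 0.031, adjusted p = 0.64) and SCD (0.002, SE 0.035, adjusted p = 0.98) did not pass. FDFT1 was past the threshold by little and lost it without PXGL WT replicate 1 or 3 or XIST KO replicate 1 or 3, at adjusted p between 0.054 and 0.059, as did AACS without PXGL WT replicate 3, at 0.063. The 5 trophectoderm markers summed to 20.6 to 22.0 CPM in XIST KO and 26.6 to 28.9 CPM in PXGL WT, with GATA2 and GATA3 lower. The 5 primed markers summed to 103 to 106 CPM in XIST KO and 116 to 122 CPM in PXGL WT, with 2 of the 3 tested lower and 1 higher. The 6 fibroblast markers averaged 20.8 ± 0.746 CPM and 17.4 ± 2.59 CPM in sum, with 1 of the 3 tested higher. Of the 7 naive markers 2 were lower and none higher, and of the 5 hypoblast markers 1 was higher and 1 lower. The part of these shifts was not tested.

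Repression of XIST was examined in CRISPRi Dox against CRISPRi UT. Here 14 of the 30 genes fell and 2 rose, beside 18.9% of all genes that fell and 20.7% that rose. The median over the 30 was -0.11, against -0.001 over all genes, and 8 of the 17 cholesterol enzymes, 3 of the 5 sensing and transport genes and 3 of the 8 fatty acid genes were among those that fell. The library labelled CRISPRi Dox replicate 1 held the least XIST, and without it 14 genes passed as lower and none as higher.

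FASN changed most. It was at 1575, 1570 and 1609 CPM in CRISPRi UT and at 1067, 1159 and 1093 CPM in CRISPRi Dox, so that the groups were far apart (log2 fold change -0.53, SE 0.036, adjusted p = 4.5e-10). LSS was at 18.7, 18.3 and 17.9 CPM without doxycycline and at 13.1, 13.5 and 13.4 CPM with it (-0.47, SE 0.075, adjusted p = 4.0e-05). MVD, the mevalonate diphosphate decarboxylase, was at 60.2, 61.3 and 61.1 CPM and at 43.9, 45.1 and 47.1 CPM (-0.44, SE 0.040, adjusted p = 4.4e-08). For both enzymes all treated libraries were below all untreated ones. DHCR7, which makes cholesterol from its last precursor, fell by 0.32 (SE 0.041, adjusted p = 2.9e-06) on the log2 scale, IDI1, the isopentenyl diphosphate isomerase, by 0.31 (SE 0.043, adjusted p = 7.9e-06) and HMGCS1 by 0.21 (SE 0.035, adjusted p = 8.4e-05).

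Among the sensing genes, SREBF1 fell from 420 to 424 CPM to 352 to 378 CPM (-0.21, SE 0.032, adjusted p = 2.5e-05), SREBF2 from 427 to 434 CPM to 398 to 404 CPM (-0.12, SE 0.031, adjusted p = 0.0044) and STARD4 from 87.2 to 90.5 CPM to 74.0 to 78.5 CPM (-0.23, SE 0.038, adjusted p = 5.5e-05). INSIG1 stood at 148 to 153 CPM untreated and 142 to 161 CPM treated, with overlapping groups (-0.01, SE 0.040, adjusted p = 0.84). INSIG2 was at 21.7, 18.1 and 14.4 CPM in the treated libraries against 14.3 to 15.7 CPM, overlapping in replicate 3, and rose by 0.27 on the log2 scale (SE 0.10, adjusted p = 0.041). That call was lost without CRISPRi Dox replicate 1 (0.12, adjusted p = 0.32) and without any library of CRISPRi UT (adjusted p 0.052 to 0.11). In the fatty acid branch, FADS2 fell by 0.16 (SE 0.035, adjusted p = 0.0010) and ACLY, which splits citrate, by 0.13 (SE 0.032, adjusted p = 0.0021), and SCD was at 1852 to 1876 CPM and 1820 to 1892 CPM (-0.02, SE 0.035, adjusted p = 0.76).

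**Figure D3:**
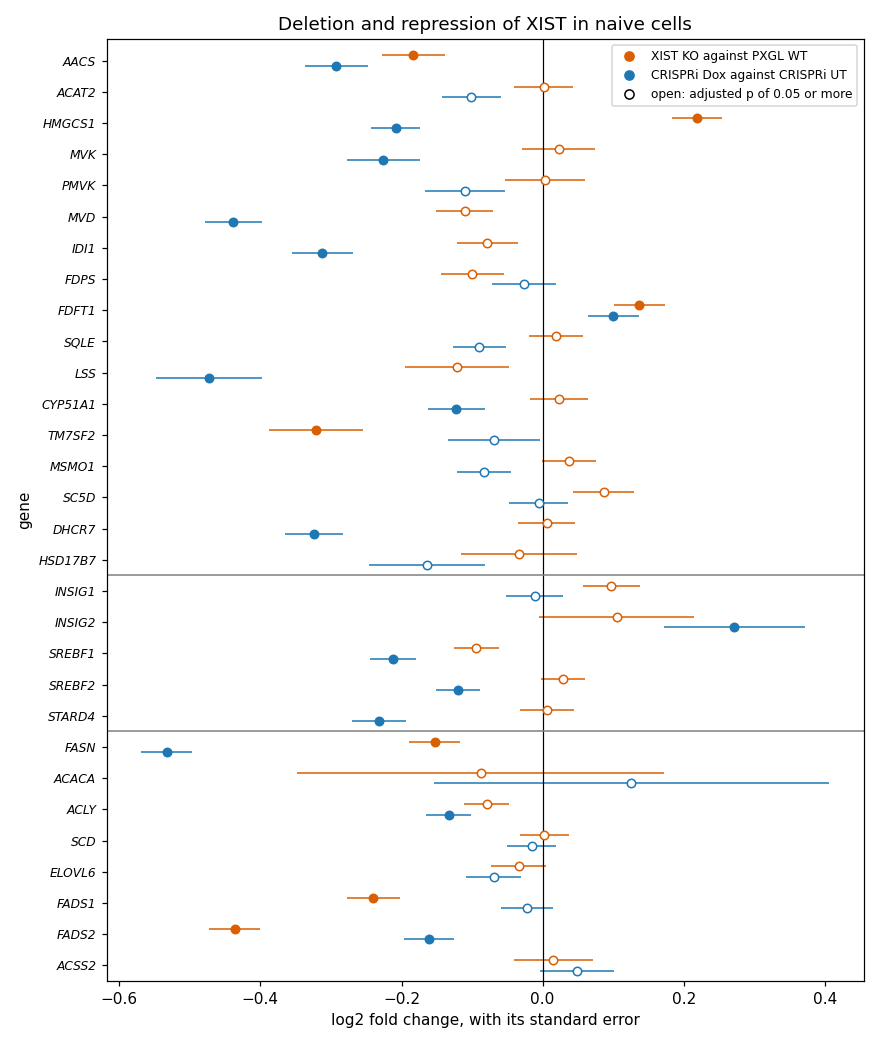
Log2 fold change with its standard error (x axis) for the 30 genes (y axis, in 3 blocks by role) in XIST KO against PXGL WT (orange) and CRISPRi Dox against CRISPRi UT (blue), filled where the adjusted p is below 0.05. FASN lies at -0.15 and -0.53, FADS2 at -0.44 and -0.16, and HMGCS1 at 0.22 and -0.21.

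The difference between these 2 effects was tested directly, as the effect of XIST KO minus that of CRISPRi Dox. It passed for 9 genes with a higher value in XIST KO and 2 with a lower one, beside 10% and 11.8% of all genes, and the median over the 30 was 0.11, against -0.001 over all genes. HMGCS1, which rose in one system and fell in the other, differed by 0.43 on the log2 scale (SE 0.050, adjusted p = 4.0e-06). FASN differed by 0.38 (SE 0.050, adjusted p = 1.9e-05), LSS by 0.35 (SE 0.11, adjusted p = 0.021), MVD by 0.33 (SE 0.057, adjusted p = 0.00035) and DHCR7 by 0.33 (SE 0.058, adjusted p = 0.00039). FADS2 (-0.28, SE 0.050, adjusted p = 0.00052) and FADS1 (-0.22, SE 0.053, adjusted p = 0.0054) were the only genes of the set with a lower value in XIST KO that passed. The differences of INSIG1 (0.11, SE 0.057, adjusted p = 0.18), SREBF1 (0.12, SE 0.045, adjusted p = 0.069) and SCD (0.02, SE 0.050, adjusted p = 0.84) did not pass. That of LSS was lost without PXGL WT replicate 3 or XIST KO replicate 2 or 3, at adjusted p between 0.056 and 0.064. The 2 systems also differ in doxycycline, in their clones and in how much XIST was left.

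Both effects are read against controls that themselves differed. In CRISPRi UT, 12 of the 30 genes were higher than in PXGL WT and none lower, beside 13.5% of all genes that were higher and 11.4% that were lower. The median over the 30 was 0.07, against -0.002 over all genes. The count of 0 lower genes is by edgeR, where FDPS alone had an unadjusted p below 0.05 in that direction, and DESeq2 called none either. Of the fatty acid genes, 6 of 8 were higher, of the sensing and transport genes 4 of 5, and of the cholesterol enzymes 2 of 17. ACSS2 was at 35.6 to 36.6 CPM in PXGL WT and 58.2 to 58.5 CPM in CRISPRi UT (log2 fold change 0.70, SE 0.054, adjusted p = 6.2e-08), FADS1 at 73.9 to 77.0 and 106 to 111 CPM (0.52, SE 0.037), FASN at 1135 to 1176 and 1570 to 1609 CPM (0.46, SE 0.036) and SCD at 1460 to 1525 and 1852 to 1876 CPM (0.33, SE 0.035). FASN in CRISPRi Dox, at 1067 to 1159 CPM, overlapped PXGL WT, whereas ACSS2, FADS1 and SCD in CRISPRi Dox stayed above all PXGL WT libraries. INSIG1 (0.27, SE 0.040), INSIG2 (0.34, SE 0.11), SREBF1 (0.30, SE 0.032) and STARD4 (0.25, SE 0.038) were higher in CRISPRi UT as well, as were DHCR7 (0.17, SE 0.041) and SC5D (0.14, SE 0.043, adjusted p = 0.023). HMGCS1 (0.01, SE 0.035) and SREBF2 (0.07, SE 0.031, adjusted p = 0.10) did not pass. These values share their libraries with the effects above. Markers differed between these controls too. The 5 trophectoderm markers summed to 17.4 to 19.4 CPM in CRISPRi UT against 26.6 to 28.9 CPM in PXGL WT, with 2 lower, and the 5 primed markers to 100 to 104 CPM against 116 to 122 CPM, with 2 of the 3 tested lower. The 6 fibroblast markers summed to 24.8 to 27.7 CPM against 14.7 to 19.9 CPM. Of the 3 tested, COL1A2 (2.12, SE 0.39) and TWIST2 (0.61, SE 0.082) were higher and none was lower. Of the 7 naive, 4 core and 5 hypoblast markers, 1 each was lower and none higher. Their part in the differences was not tested.

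**Figure D4:**
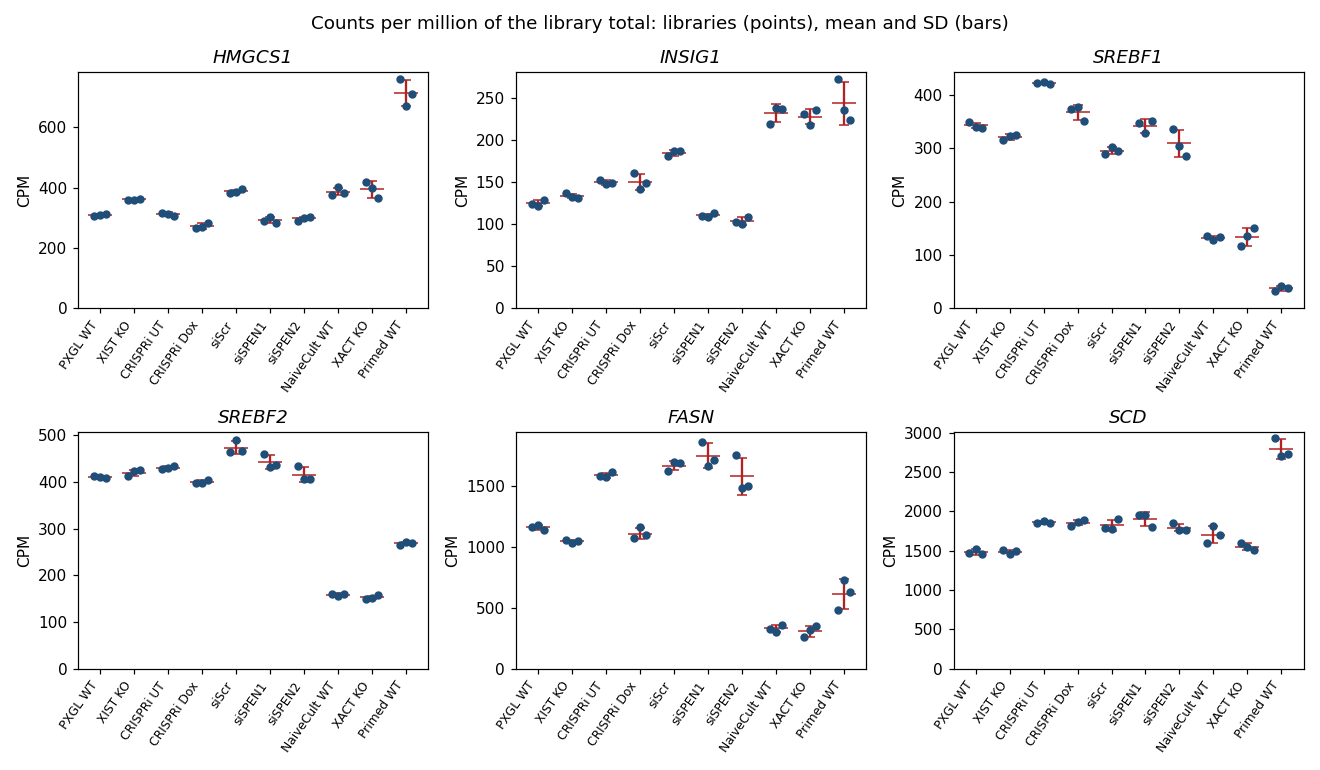
CPM (y axis) of HMGCS1, INSIG1, SREBF1, SREBF2, FASN and SCD in each library (points) of the 10 groups (x axis), with the mean and SD of 3 libraries. FASN lies between 1032 and 1176 CPM in PXGL WT, XIST KO and CRISPRi Dox and between 1479 and 1858 CPM in CRISPRi UT and the siRNA groups, and INSIG1 falls from siScr to both SPEN mixes.

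Among the other pathway genes in the XIST experiments, only ACSL4, an X-linked gene that activates polyunsaturated fatty acids, changed by more than 1 on the log2 scale in XIST KO, from 32.2 to 65.1 CPM (1.01, SE 0.058, adjusted p = 1.2e-10). It rose from 46.7 to 94.5 CPM in CRISPRi Dox (1.00, SE 0.056), where VLDLR rose from 10.1 to 23.0 CPM and ELOVL2, an elongase, fell from 5.69 to 2.38 CPM. In all, 6 of 49 tested genes rose and 5 fell in XIST KO, beside 6.94% and 5.99% of all genes. In CRISPRi Dox 14 rose and 13 fell, beside 20.7% and 18.9%. Cell type markers moved in CRISPRi Dox. The 7 naive markers summed to 2392 to 2553 CPM against 2748 to 2855 CPM in CRISPRi UT, with 3 lower, among them KLF17 (-1.24, SE 0.11), and 1 higher. The 5 trophectoderm markers summed to 25.1 to 30.8 CPM against 17.4 to 19.4 CPM, with 3 higher and 1 lower, and GATA2 was at 5.14 against 5.10 CPM. The 5 hypoblast markers summed to 30.2 to 37.4 CPM against 22.3 to 24.5 CPM, with 2 higher and 1 lower, and the 4 core pluripotency markers to 1396 to 1492 CPM against 1207 to 1251 CPM, with 3 higher. The part of these shifts in the results was not tested.

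Depletion of SPEN was examined with the 2 siRNA mixes, each against the same scrambled control. With siSPEN1, 15 of the 30 genes fell and 3 rose, beside 22.9% of all 16448 genes that fell and 20.8% that rose. With siSPEN2, 16 fell and 2 rose, beside 20.7% and 20.5%. The medians over the 30 were -0.12 and -0.18, against -0.0005 and -0.005 over all genes. Of the 17 cholesterol enzymes, 9 fell with the first mix and 11 with the second, and of the 8 fatty acid genes 5 and 3.

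INSIG1 changed most with either mix. The control libraries held 181, 188 and 187 CPM, those of siSPEN1 110, 109 and 113 CPM and those of siSPEN2 103, 100 and 109 CPM. All depleted libraries lay far below the controls, with log2 fold changes of -0.73 (SE 0.047, adjusted p = 8.6e-11) and -0.84 (SE 0.047, adjusted p = 1.5e-11), or 1.66-fold and 1.79-fold lower. INSIG2 was at 13.8 to 15.4, 13.9 to 15.3 and 14.3 to 15.5 CPM in the 3 groups and did not pass with either mix (adjusted p = 0.86 and 0.77). STARD4 rose with both, from 67.8 to 71.4 CPM to 72.1 to 82.9 CPM (0.16, SE 0.054, adjusted p = 0.018) and 78.8 to 83.1 CPM (0.22, SE 0.053, adjusted p = 0.0020). The first of these was lost without siScr replicate 2 (adjusted p = 0.051) or siSPEN1 replicate 1 (0.086).

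Of the SREBF genes, SREBF1 rose with siSPEN1 and SREBF2 fell with siSPEN2. SREBF1 was at 290 to 302 CPM in siScr and 328 to 351 CPM in siSPEN1, higher in every library (0.22, SE 0.054, adjusted p = 0.0025), while siSPEN2 at a mean of 309 ± 26.2 CPM (SD, n = 3) overlapped the control (0.05, SE 0.054, adjusted p = 0.48). SREBF2 was at 464 to 490 CPM in siScr, 433 to 460 CPM in siSPEN1 (-0.08, SE 0.048, adjusted p = 0.17) and 407 to 434 CPM in siSPEN2 (-0.20, SE 0.048, adjusted p = 0.0024). Between the mixes, SREBF1 was lower in siSPEN2 (-0.17, SE 0.054, adjusted p = 0.021) and SREBF2 did not pass (-0.11, SE 0.048, adjusted p = 0.076).

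Among the cholesterol enzymes, HMGCS1, MVK and MVD fell with both mixes. HMGCS1 was at 383, 385 and 394 CPM in siScr, at 293 ± 9.96 CPM (SD, n = 3) in siSPEN1 and at 291, 300 and 303 CPM in siSPEN2, with the depleted libraries all below the controls (-0.39, SE 0.047, adjusted p = 8.8e-07 and -0.39, SE 0.047, adjusted p = 1.1e-06). MVK averaged 48.2 ± 1.48 CPM in the control, 34.2 ± 2.48 CPM with the first mix and 35.6 ± 1.92 CPM with the second (-0.49, SE 0.061 and -0.45, SE 0.061). MVD was at 66.4 to 73.8, 50.3 to 53.2 and 49.8 to 56.6 CPM (-0.41, SE 0.059 and -0.41, SE 0.059). AACS, at 85.5 to 92.4 CPM in siScr, fell to 53.4 to 61.6 CPM with the first mix (-0.62, SE 0.060, adjusted p = 4.4e-08) and to 73.6 to 80.7 CPM with the second (-0.21, SE 0.059, adjusted p = 0.0080). TM7SF2 averaged 9.27 ± 0.682 CPM in the control, 7.97 ± 0.762 CPM in siSPEN1, which did not pass (-0.20, SE 0.10, adjusted p = 0.11), and 12.1 ± 1.32 CPM in siSPEN2, where it rose (0.37, SE 0.097, adjusted p = 0.0039).

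In the fatty acid branch, the control libraries held 246, 271 and 273 CPM of FADS2, against 196, 173 and 170 CPM with siSPEN1 and 189, 175 and 170 CPM with siSPEN2. All depleted libraries were below the controls (-0.54, SE 0.061, adjusted p = 3.5e-07 and -0.58, SE 0.061, adjusted p = 1.7e-07). ACSS2 fell from 43.6 to 47.1 CPM to 29.3 to 31.4 CPM (-0.55, SE 0.058, adjusted p = 1.3e-07) and 34.0 to 37.2 CPM (-0.36, SE 0.057, adjusted p = 3.2e-05). FADS1 fell by 0.13 (SE 0.047, adjusted p = 0.034) and 0.23 (SE 0.047, adjusted p = 0.00051) on the log2 scale. ACLY (-0.19, SE 0.052, adjusted p = 0.0053) and ELOVL6 (-0.17, SE 0.051, adjusted p = 0.0085) fell with the first mix, the latter losing its call without siScr replicate 1 (adjusted p = 0.066) or siSPEN1 replicate 1 (0.079). FASN was at 1619 to 1690 CPM in siScr, 1664 to 1858 CPM in siSPEN1 (0.08, SE 0.062, adjusted p = 0.32) and 1479 to 1750 CPM in siSPEN2 (-0.09, SE 0.062, adjusted p = 0.28), and SCD did not pass with either mix (0.07, SE 0.054, adjusted p = 0.29 and -0.03, SE 0.054, adjusted p = 0.65).

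**Figure D5:**
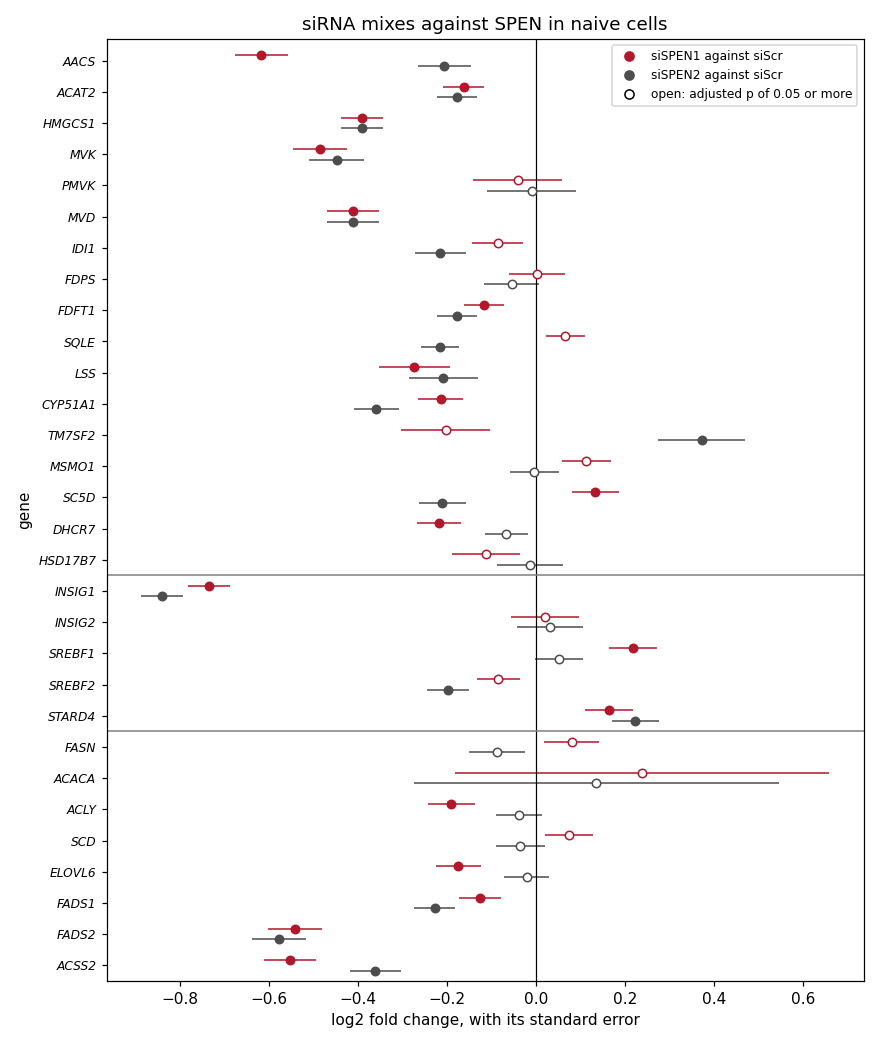
Log2 fold change with its standard error (x axis) for the 30 genes (y axis, in 3 blocks by role) in siSPEN1 (red) and siSPEN2 (grey) against siScr, filled where the adjusted p is below 0.05. INSIG1 lies at -0.73 and -0.84, FADS2 at -0.54 and -0.58, and TM7SF2 at -0.20 and 0.37.

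The mixes were compared directly, since their effects share the control. In siSPEN2, 6 of the 30 genes were higher and 5 lower than in siSPEN1, beside 18.3% and 16.3% of all genes, with a median over the 30 of -0.03 against 0.002 over all genes. TM7SF2 (0.58, SE 0.099, adjusted p = 0.00011) and AACS (0.41, SE 0.060, adjusted p = 1.7e-05) were higher, and SC5D (-0.34, SE 0.053, adjusted p = 3.0e-05) and SQLE, the squalene epoxidase (-0.28, SE 0.043, adjusted p = 2.4e-05), lower. ACSS2 (0.19, SE 0.059, adjusted p = 0.015), ELOVL6 (0.15, SE 0.051, adjusted p = 0.024), ACLY (0.15, SE 0.052, adjusted p = 0.028) and FASN (-0.17, SE 0.062, adjusted p = 0.041) also passed, and each of these 4 lost its call when 1 of several libraries was left out. INSIG1 (-0.11, SE 0.047, adjusted p = 0.092), HMGCS1 (0.001, SE 0.047, adjusted p = 0.99) and SCD (-0.11, SE 0.054, adjusted p = 0.13) did not pass. The count of lower genes was 2 without siSPEN1 replicate 1 or siSPEN2 replicate 2, 3 without siSPEN1 replicate 2 and 8 without siSPEN1 replicate 3, and that of higher genes was 3 without siSPEN2 replicate 1.

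Of the 49 other pathway genes tested in the siRNA groups, 21 fell and 10 rose with siSPEN1, beside 22.9% and 20.8% of all genes. With siSPEN2, 15 of them fell and 9 rose, beside 20.7% and 20.5%. ERG28, a scaffold of the sterol demethylation complex and named after its values were seen, fell with both mixes, by 0.54 (SE 0.061) and 0.95 (SE 0.061) on the log2 scale. Of the 3 SREBP processing genes, the proteases MBTPS1 (0.73, SE 0.050 and 0.74, SE 0.050) and MBTPS2 (0.54, SE 0.056 and 0.42, SE 0.056), also named after their values were seen, rose. The third, SCAP, did not pass with either mix (-0.11 and -0.03). Beyond a log2 fold change of 1, ELOVL7, an elongase, rose from 0.267 CPM to 0.959 and 2.18 CPM and ABCG1 from 0.178 CPM to 1.10 and 0.705 CPM with both mixes, and with siSPEN1 ACSL1 rose from 3.04 to 6.10 CPM and ELOVL2 fell from 4.07 to 1.56 CPM. The 7 naive markers summed to 2776 to 2808 CPM in siScr, 2937 to 3114 CPM in siSPEN1, with 5 higher and 1 lower, and 2623 to 2765 CPM in siSPEN2, with 2 lower. The 5 primed markers summed to 167 to 175 CPM in siScr, 81.6 to 86.7 CPM in siSPEN1 and 109 to 116 CPM in siSPEN2. Of the 3 tested, CD24 fell with both mixes (-1.35, SE 0.049 and -1.17, SE 0.048), and SALL2 fell with the first (-0.21, SE 0.067) and rose with the second (0.42, SE 0.065), as did ZIC2 with the second (0.56, SE 0.15). In the same order of groups, the 5 hypoblast markers summed to 49.6 to 52.8, 40.4 to 42.3 and 29.7 to 33.4 CPM, with 2 lower in siSPEN1 and 3 in siSPEN2. The 5 trophectoderm markers summed to 25.5 to 30.9, 19.5 to 23.1 and 23.7 to 24.7 CPM. Of these, 1 rose and 2 fell with siSPEN1, and 1 rose and 3 fell with siSPEN2. The 6 fibroblast markers summed to 15.1 to 18.1, 20.6 to 23.5 and 21.7 to 23.9 CPM. Of the 3 tested, 1 rose and 1 fell with siSPEN1, and 1 rose with siSPEN2. The 4 core pluripotency markers summed to 1177 to 1204, 1331 to 1436 and 1206 to 1268 CPM, with 3 higher in siSPEN1 and 1 in siSPEN2. The part of these shifts in the results was not tested.

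Loss of XACT was examined in XACT KO against NaiveCult WT. Of the 30 genes, 1 fell and none rose, beside 0.219% of all 16472 genes that fell and 0.206% that rose, and the median over the 30 was -0.02, against -0.0002 over all genes. By edgeR, 2 genes had an unadjusted p below 0.05 in the higher direction, ACAT2 and IDI1, and DESeq2 called none higher. ACSS2 was at 114, 152 and 119 CPM in NaiveCult WT and 90.7, 91.0 and 85.3 CPM in XACT KO. The groups did not overlap (log2 fold change -0.52, SE 0.094, adjusted p = 0.034), but the call was lost without NaiveCult WT replicate 2, the highest library (-0.37, adjusted p = 0.068), XACT KO replicate 1 (adjusted p = 0.15) or XACT KO replicate 3 (0.17). INSIG2 was at 13.9, 20.4 and 17.6 CPM and 12.8, 9.93 and 12.3 CPM, also without overlap, and did not pass (-0.57, SE 0.14, adjusted p = 0.066). HMGCS1 (0.04, SE 0.063, adjusted p = 0.81), INSIG1 (-0.01, SE 0.060, adjusted p = 0.94), SREBF1 (0.03, SE 0.079, adjusted p = 0.90), SREBF2 (-0.04, SE 0.058, adjusted p = 0.75), FASN (-0.10, SE 0.090, adjusted p = 0.62) and SCD (-0.13, SE 0.056, adjusted p = 0.25) did not pass either. None of the 50 other pathway genes passed by edgeR, and 4 had an unadjusted p below 0.05. The 5 trophectoderm markers summed to 112 to 149 CPM in XACT KO against 93.0 to 108 CPM, with KRT7 higher, and the 6 fibroblast markers to 11.5 to 21.0 CPM against 21.9 to 33.4 CPM, with none passing. Their part in these values was not tested.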

How the data were processed

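RNA was sequenced from H9 hES cells in 30 libraries. The authors trimmed reads with Trim Galore 0.6.5, aligned them to the human and mouse genomes with Bowtie2, removed duplicates with Picard 2.23.5, required a mapping quality of at least 10, removed mouse feeder reads with XenofilteR and counted reverse-stranded reads per gene with HTSeq 0.13.5. Their deposited files hold whole-number counts for 28307 gene symbols, 1496 of them unnamed LOC symbols, with library totals of 31190052 to 65637976, and these raw counts were used as deposited.

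CPM is the count scaled to the library total. edgeR 4.0.16 in R 4.3.3 (TMM, filterByExpr with a minimum count of 10 and minimum total of 15, quasi-likelihood F test, 2-sided) was fitted to all genes in 4 sets: the XIST groups, the siRNA groups, the XACT groups, and the 3 wild-type states. P-values were adjusted by Benjamini-Hochberg over all genes tested, with 0.05 as the threshold, and standard errors were recovered from the log2 fold change and its F statistic. Scripts were tested on simulated data with known changes. The genes and lists were chosen with earlier results of these data known. Every comparison gives HMGCS1, INSIG1, SREBF1, SREBF2, FASN and SCD and, in each branch, the 4 members with the largest change among those passing. Other pathway genes were named beyond a log2 fold change of 1, at most 4 a list and comparison, unless stated. Alternatives were DESeq2 1.42.0, library-total scaling, other filters, other sets of libraries, the replicate number as a block, and leaving out each library. Gene positions and exon lengths are from GENCODE 44 and promoters from RefSeq. Results for some of the other pathway genes are not reported here.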

Additional observations from a re-analysis of the deposited data

Results flagged for a closer look

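The effect of XIST deletion and that of XIST repression, each against its own control, differed for 11 of the 30 genes by the test of the difference itself (edgeR, log2 effect in XIST KO minus log2 effect in CRISPRi Dox). The difference was positive for 9 of them. It was 0.43 for HMGCS1, 0.35 for LSS, 0.33 for MVD, 0.33 for DHCR7, 0.25 for MVK and 0.23 for IDI1 among the cholesterol enzymes, 0.24 for STARD4 and 0.15 for SREBF2 among the sensing and transport genes, and 0.38 for FASN. It was negative for FADS1 (-0.22) and FADS2 (-0.28). That of SREBF2 did not pass without XIST KO replicate 3 (adjusted p = 0.061). Doxycycline, the clones and the remaining XIST differ between the 2 systems as well and cannot be told apart.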

How the results depend on the processing

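Counts of the 30 genes that passed mostly stayed within 1.5 times under the other settings. Fitted on only the 6 libraries compared, XIST KO had 4 higher and 9 lower genes, CRISPRi Dox 0 higher, beside 2875 of all 16693 genes, and CRISPRi UT 1 lower, beside 2768 of 16840. In XACT KO, 2 genes were lower with DESeq2, 2 without the filter on low counts and 0 with Primed WT added to the fit, where 360 of all 16472 genes, 375 of 22975 and 33 of 18350 were lower. With all 30 libraries in one fit, 2 were higher and 3 lower in XACT KO, beside 1036 and 928 of all 19133 genes (34 and 36 of 16472 in the fit reported), 1 was higher in XIST KO, beside 829, and 0 in CRISPRi Dox, beside 2901. The causes were not tested.

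Deviations from the group mean were correlated between the replicates of the 2 groups of each comparison. Only for siSPEN2 and siSPEN1 was each library closest to its own number, with correlations of 0.19, 0.097 and 0.11. With the replicate block, 2 genes were lower in XACT KO, beside 255 of all 16472, and no other count moved by over 1.5 times.

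Leaving out 1 library at a time gave ranges for the higher and lower counts of 1 to 2 and 4 to 5 in XIST KO, 0 to 2 and 13 to 19 in CRISPRi Dox, 10 to 11 and 0 to 1 in CRISPRi UT, 7 to 13 and 2 to 3 for the difference of the XIST effects, 1 to 4 and 11 to 13 in siSPEN1, 2 to 2 and 15 to 16 in siSPEN2, 3 to 5 and 2 to 8 in siSPEN2 against siSPEN1, and 0 to 0 and 0 to 2 in XACT KO. For the states they were 6 to 7 and 21 to 23 in NaiveCult WT against Primed WT, 5 to 6 and 20 to 22 in PXGL WT against Primed WT, and 8 to 8 and 18 to 20 in PXGL WT against NaiveCult WT. Beyond the libraries named in the report, the count of higher genes in XIST KO was 1 without PXGL WT replicate 1 or 3 or XIST KO replicate 1 or 3, that in CRISPRi Dox was 0 without CRISPRi UT replicate 1 or 3 and 1 without replicate 2, and that in siSPEN1 was 1 without siScr replicate 2 or siSPEN1 replicate 1. CRISPRi UT had 1 lower gene without PXGL WT replicate 1, and XACT KO had 2 without NaiveCult WT replicate 1.

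Among the genes that the naming rule gives in each comparison, the sign of 24 values turned with a setting, none of them past the threshold there. Outside that rule, on library totals ELOVL6, which had passed as higher in NaiveCult WT against Primed WT (0.11), was at -0.04, and DHCR7 in PXGL WT against NaiveCult WT went from 0.04 to -0.02, passing on neither scale. With library totals, INSIG1 was 0.002 in CRISPRi Dox and -0.07 in NaiveCult WT against Primed WT. HMGCS1 in siSPEN2 against siSPEN1 was -0.005 with DESeq2, -0.002 without the filter and -0.01 on 6 or all 30 libraries. The rest came with 1 library left out. In CRISPRi Dox, INSIG1 ranged from -0.05 to 0.03 and SCD from -0.03 to 0.01. SCD ranged from -0.01 to 0.04 in XIST KO, from -0.00006 to 0.05 in the difference of effects and from -0.06 to 0.01 in siSPEN2, where SREBF1 ranged from -0.01 to 0.10. HMGCS1 ranged from -0.04 to 0.04 in siSPEN2 against siSPEN1. In XACT KO, HMGCS1 ranged from -0.02 to 0.09, INSIG1 from -0.05 to 0.02, SREBF1 from -0.06 to 0.12 and FASN from -0.19 to 0.01.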
